A study of Mus musculus with 6 samples.

Results

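ATF4 occupancy was examined at 9 genes of glutathione and cysteine metabolism in mouse embryonic fibroblasts (MEFs), which are cells grown from mouse embryos. The genes were chosen by their function, with earlier results of these data known. The search covered the 4 annotated peak lists of an ATF4 chromatin-immunoprecipitation sequencing (ChIP-seq) experiment. Each gene was looked up by gene symbol, at any distance from the transcription start site (TSS). The genes accounted for 9 of the 17462 listed peaks, and the lists as a whole named 8863 genes. Primary MEFs of the 129S6/SvEvTac strain, either wild-type (WT) or lacking GCN2 (GCN2-/-, here GCN2 KO), were kept for 24 h in complete DMEM (+Leu) or in DMEM without leucine (-Leu). Each of the 4 conditions was represented by 1 library, made from chromatin that had been pooled before sequencing, so no difference between conditions carries a replicate error and none was tested. The peak lists offer no reading of the GCN2 deletion itself.

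GCN2 is the kinase that senses uncharged tRNA when an amino acid runs short. It phosphorylates the initiation factor eIF2alpha, which lowers general protein synthesis while raising translation of the ATF4 mRNA, and ATF4 then binds composite C/EBP-ATF elements, whose core is commonly written TGATGCAA, near genes of amino acid supply and stress. Glutathione is the main thiol antioxidant of the cell and is built from glutamate, cysteine and glycine, so its synthesis and breakdown are tied to the supply of cysteine. Cbs and Cth make cysteine from homocysteine, Gclc, Gclm and Gss assemble glutathione, Gsr returns its oxidized form to the reduced one, and Chac1 and Chac2 cleave it inside the cell. Ggt7 belongs to the gamma-glutamyltransferase family, whose best known members cleave glutathione outside the cell.

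Chac1 was the one member with a peak in every list, and its peak stood at or near the top of each. Cbs, Cth, Gsr and Ggt7 each had a peak in a single list, with scores between 23 and 48. Chac2, Gclc, Gclm and Gss had none in any list. In WT cells 2 of the 9 members were listed with leucine and 3 without it, and in GCN2 KO cells 2 were listed with leucine and 1 without it. Of 21900 protein-coding genes in the reference, the same lists in the same order named 14.6%, 18.3%, 11.1% and 8.56% for a peak. With the limit of 5 kb from a TSS that the study used for target genes, the counts were 2, 3, 1 and 1 members, beside 3.03%, 4.40%, 2.26% and 1.61% of protein-coding genes. With 9 members these counts amount to 1 to 3 genes a list, and Chac1 is 1 of them each time.

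**Figure D1:**
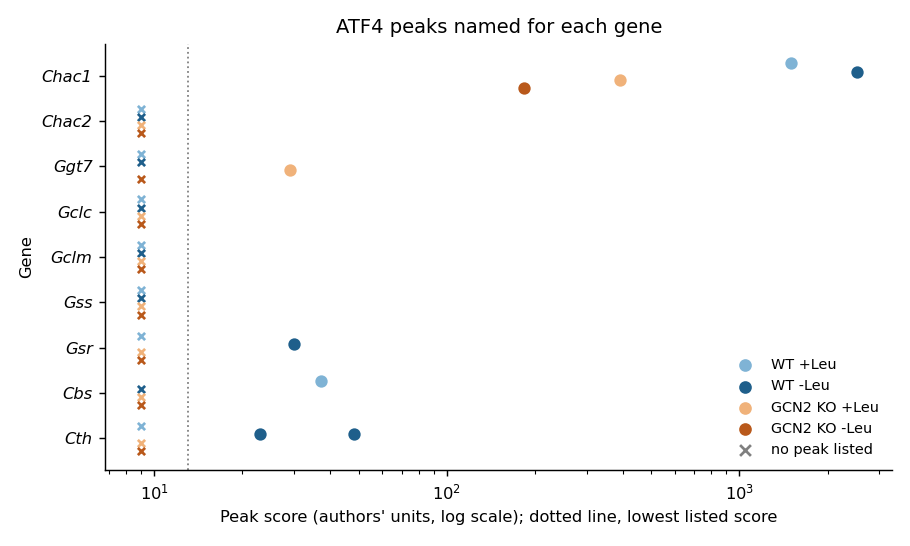
Peak score (log scale, in the authors' units) of every ATF4 peak named for the 9 genes, with 1 row per gene and 1 color per peak list; a cross at the left marks a gene without a peak in that list, and the dotted line is the lowest score listed, 13. The 4 Chac1 peaks score from 184 to 2515, and the 5 peaks of the other genes from 23 to 48.

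The sequences under these peaks are shown because the comparisons below turn on whether the ATF4 core is present and how far it lies from the peak center. Each is the plus strand of mm10, 5′ to 3′, around the center of the peak, with 100 bp to either side for Chac1 and 50 bp for the others. Capitals mark TGATGNAA (N is any base) on either strand, TGACGCAA in the case of Chac1 and, for Ggt7, the single word within 50 bp of the center that differs from TGATGCAA at 1 position. On the minus strand TGATGCAA reads TTGCATCA.
Chac1, promoter, chr2:119350956-119351156: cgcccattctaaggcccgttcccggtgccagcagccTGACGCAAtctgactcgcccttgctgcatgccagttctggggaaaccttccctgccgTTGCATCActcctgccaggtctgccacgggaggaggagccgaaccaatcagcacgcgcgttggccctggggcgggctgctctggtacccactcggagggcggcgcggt
Cth, intron 1, chr3:157923597-157923697: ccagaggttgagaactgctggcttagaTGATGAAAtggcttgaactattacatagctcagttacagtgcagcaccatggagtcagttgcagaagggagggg
Ggt7, exon 2 and the intron after it, chr2:155506288-155506388: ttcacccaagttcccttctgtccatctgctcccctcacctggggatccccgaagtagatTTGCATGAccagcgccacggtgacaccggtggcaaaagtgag
Cbs, intron 1, chr17:31636906-31637006: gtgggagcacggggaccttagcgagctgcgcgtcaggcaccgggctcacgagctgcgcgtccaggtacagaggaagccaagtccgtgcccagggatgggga
Gsr, intron 1, chr8:33653851-33653951: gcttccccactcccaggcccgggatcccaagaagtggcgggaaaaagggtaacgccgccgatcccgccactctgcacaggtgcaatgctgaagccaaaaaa

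Chac1 (Entrez Gene 69065) encodes a gamma-glutamylcyclotransferase that degrades glutathione in the cytosol and is a known target of ATF4. It lies on the plus strand of chromosome 2, from 119351242 to 119354326. In WT cells its peak scored 1499 with leucine and 2515 without, and in GCN2 KO cells 391 with leucine and 184 without. Both WT values lay above both GCN2 KO values. The peak score is the peak caller's and was not normalized between libraries, so these differences cannot be told apart from differences in sequencing depth, which the lists do not give, and the -Leu peaks were called against input DNA of +Leu cells. A score also does not separate how many cells had ATF4 at a site from how much was bound in each. Because the scale of the score is not given, a ratio of scores cannot be read as a ratio of bound ATF4.

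By rank within its own list, Chac1 was 1st of 4850 peaks in WT +Leu and 2nd of 6374 in WT -Leu. Among the GCN2 KO peaks it was 1st of 3566 with leucine and 7th of 2672 without it. Among peaks within 5 kb of a TSS it was 1st of 811, 1173 and 591 in the first 3 lists and 4th of 426 in GCN2 KO -Leu. Its score exceeded the median of its list 50.0-fold in WT +Leu and 83.8-fold in WT -Leu, against 13.5-fold and 6.13-fold in GCN2 KO with and without leucine. The medians themselves were 29 or 30 in all lists, so the lists differed at the top and not in the middle. By rank, the Chac1 promoter kept a leading place in the GCN2 KO lists. With medians this alike, the folds over the median restate the scores and are not a separate measure. Their smaller size in GCN2 KO carries the same limit of unknown depth.

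The 4 peaks lay at a single promoter site. For WT the window ran from 119350861 to 119351161 with leucine and from 119350906 to 119351206 without it. For GCN2 KO it ran from 119350903 to 119351203 with leucine and from 119350856 to 119351156 without it. All were annotated as promoter, and their centers were, in the same order, 231, 186, 189 and 236 bp upstream of the TSS. The centers fell into 2 pairs. WT -Leu and GCN2 KO +Leu differed by 3 bp, and WT +Leu and GCN2 KO -Leu by 5 bp, whereas centers of different pairs were 42 to 50 bp apart. The pairs follow neither genotype nor leucine. Shifts of this size were common, since sites in both WT lists had centers a median of 25.5 bp apart and sites in both GCN2 KO lists 47.5 bp, with a limit of 300 bp for a common site.

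**Figure D2:**
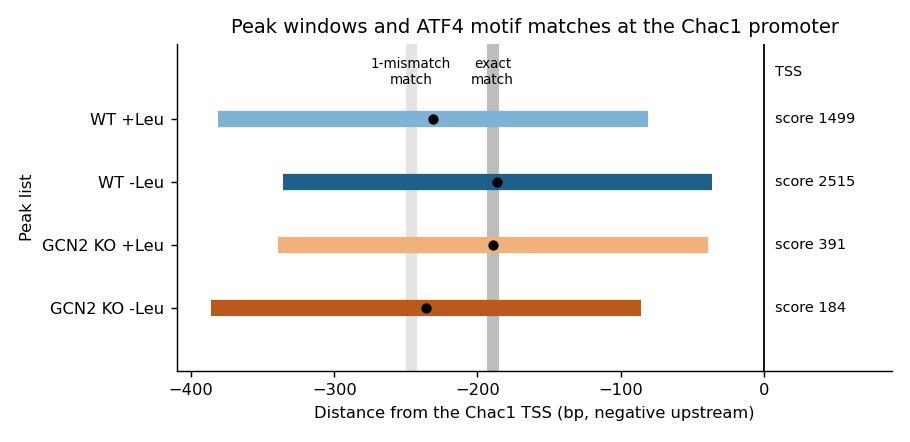
Peak windows (bars) and their centers (dots) at the Chac1 promoter in the 4 lists, as distance from the TSS in bp, with the score of each peak at the right; the dark band is the TGATGCAA match and the light band the word that differs from it at 1 position. The centers of WT -Leu and GCN2 KO +Leu lie at the exact match, and those of WT +Leu and GCN2 KO -Leu lie between the 2 bands.

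Every Chac1 window held TGATGCAA on the minus strand, from 119351049 to 119351056, and a second word, TGACGCAA, on the plus strand from 119350992 to 119350999. TGACGCAA differs from the core by T4C, counted from its 5′ end, and was added to the search after the sequence had been seen. The starts of the 2 words were 57 bp apart, at 193 and 250 bp upstream of the TSS. The middle of TGATGCAA was 3.5 bp from the peak center in WT -Leu and 0.5 bp in GCN2 KO +Leu, against 41.5 bp in WT +Leu and 46.5 bp in GCN2 KO -Leu. The middle of TGACGCAA was nearer to the center in WT +Leu (15.5 bp) and GCN2 KO -Leu (10.5 bp). In peaks with a single TGATGCAA in the window, the median distance from center to motif was 20 bp (180 peaks) with leucine and 18.5 bp (553) without it in WT, and 32.0 bp (58) and 34.5 bp (37) in GCN2 KO. In the same order, the distance was as small as at Chac1, or smaller, in 65.6%, 14.8%, 1.72% and 73.0% of them.

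The pair of words was uncommon, but it was defined from the Chac1 sequence, so its rarity says nothing about the site. TGATGCAA and TGACGCAA occurred in the same window in 2 of 4839 peaks with leucine and 8 of 6362 without it in WT, and in 2 of 3549 and 1 of 2658 in GCN2 KO, counted on assembled chromosomes and with Chac1 included. Of 32851 promoters in RefSeq (GRCm38.p6, 250 bp before to 50 bp after the start), 0.895% held TGATGCAA, 0.49% held TGACGCAA and 5 promoters, or 0.0152%, held both. The table matched 6 of the 9 members, Chac1, Chac2, Gclm, Gss, Ggt7 and Cbs, and Chac1 was the member whose promoter held either word. TGATGNAA was found in 3.97% of promoters, and again in Chac1 alone of these 6. The palindromic cAMP response element TGACGTCA, present in 1.79% of promoters, was in none of the 6.

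The deposited Chac1 score without leucine was higher in WT cells, 1.68 times the value with leucine, and lower in GCN2 KO cells. This rise was smaller than at most shared sites: of 308 sites in both WT lists, 252 scored higher in -Leu, 71.4% by 1.5 fold or more, with a median ratio of 2.36 (quartiles 1.27 and 4.56), and 64.9% had a ratio at least as high as Chac1. Among the 87 that scored 100 or more with leucine, a limit chosen after the values were seen, the median was 2.64 and 17 were below Chac1. The sites nearest to Chac1 in WT +Leu score, also picked after the values were seen, had ratios on both sides of it. They were named for Klhdc4 (1.65), Ubr2 (1.86), Atf5 (1.94), Slc7a5 (1.51), Asns (2.4) and Mthfd2 (1.67), with WT +Leu scores from 1409 to 635. Divided by the median score of the shared sites, 56 with leucine and 160 without it, the Chac1 ratio turned to 0.587. That divisor carries any rise of the shared sites, so 0.587 sets Chac1 against them and gives no direction of its own. In GCN2 KO cells the score without leucine was 0.471 times that with it. Of 98 sites in both GCN2 KO lists, 25.5% were lower by 1.5 fold or more, the median ratio was 1.0 (quartiles 0.672 and 1.25), and 15.3% had a ratio as low as Chac1 or lower. Among the 21 of these sites that scored 100 or more with leucine, the median was 0.471, the same as at Chac1, and 9 were below it.

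Between genotypes, the Chac1 score with leucine was 3.83-fold lower in GCN2 KO than in WT. Of 93 sites in both +Leu lists, 50.5% were lower in GCN2 KO by 1.5 fold or more, with a median ratio of 0.667, and 14.0% had a ratio at or below that of Chac1, 0.261. Among the 45 of them that scored 100 or more in WT, the median was 0.34 and 12 were below Chac1. Without leucine the Chac1 score was 13.7-fold lower in GCN2 KO (ratio 0.0732). Of 81 sites in both -Leu lists, 65.4% were lower by 1.5 fold or more, with a median ratio of 0.469 (quartiles 0.106 and 0.870), and 17.3% had a ratio at or below that of Chac1. Among the 40 with a WT score of 100 or more, the median was 0.105 and 13 were below Chac1. These comparisons share their lists with those of leucine, so the 4 ratios are not separate observations. In each of them Chac1 lay within the spread of the other common sites, and in 3 of the 4 it lay beyond the lower quartile of all common sites. Those quartiles include many low scores. Among sites that scored 100 or more in the first list, 9 of 21, 12 of 45 and 13 of 40 were below Chac1 in these 3.

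**Figure D3:**
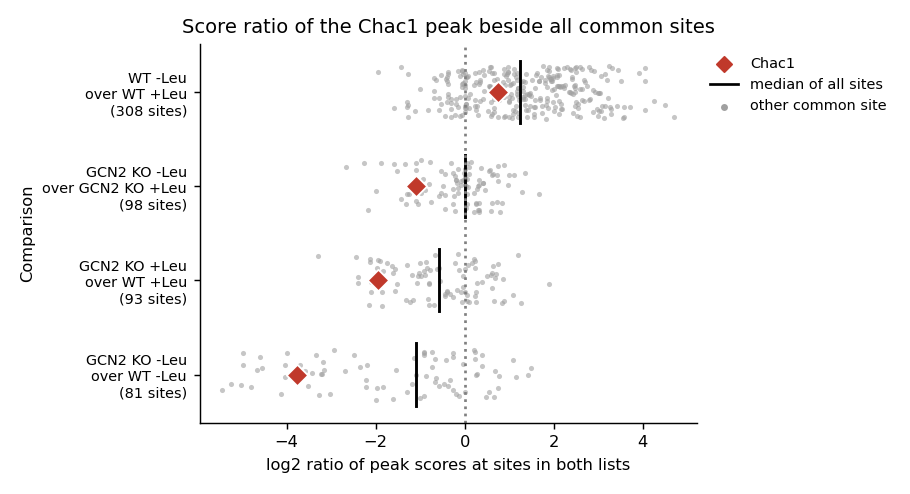
Log2 ratio of peak scores at every site found in both lists of a comparison (grey points, shifted up or down at random to separate them), with the median as a black line and Chac1 as a red diamond. Chac1 lies at 0.75 in WT, -1.09 in GCN2 KO, -1.94 between genotypes with leucine and -3.77 without it, below the median line in all 4 rows.

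Sites present in all 4 lists numbered 31, of which 16 lay within 5 kb of a TSS. Chac1 had the highest WT +Leu and WT -Leu scores of the 31. As deposited, the score was higher without leucine in WT and lower in GCN2 KO at 20 of them, Chac1 included. Divided by the median score of the shared sites, this held at 5 of the 31, and Chac1 was not among them. That median was higher in WT -Leu than in WT +Leu, so the division lowers every WT ratio. The WT ratio was 3.57 times the GCN2 KO ratio at Chac1, and the median of the 31 sites was 3.5, with 14 sites above Chac1. Among the 17 genes with a peak within 5 kb in every list, those whose scores over the 4 lists followed Chac1 most closely were Aars (mean absolute difference of 0.18 in log2 score after each gene was centered on its own mean), Psat1 (0.22) and Atf5 (0.35). Aars, the cytosolic alanyl-tRNA synthetase, scored 404 and 893 in WT with and without leucine, and 93 and 54 in GCN2 KO. Psat1, an enzyme of serine synthesis, in the same order scored 398, 1050, 161 and 66. Atf5, a bZIP transcription factor, scored 808, 1569, 228 and 205. All 3 had the same order of lists as Chac1, with the highest value in WT -Leu and the lowest in GCN2 KO -Leu. They were picked for their likeness to Chac1 in these scores, so the shared order is no separate observation. Other genes of the 17 had this order too, though not all.

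Chac2, the paralog of Chac1 that degrades glutathione more slowly, lies on chromosome 11 from 30976707 to 30986365 and was named for no peak. No peak of any list had its center within 50 kb of the gene. Ggt7 lies on chromosome 2 from 155490379 to 155514891 on the minus strand. It had 1 peak, in GCN2 KO +Leu, from 155506188 to 155506488, centered 8508 bp downstream of the TSS at coding exon 2 of 15. Its score of 29 ranked 1692 of 3566, with 297 peaks sharing that score, at the median of the list. The nearest peak of another list was 107 kb away. The word closest to the ATF4 core, TCATGCAA on the minus strand from 155506347 to 155506354, differs from it by G2C and lay 12.5 bp from the center.

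Glutathione synthesis was without a named peak at all 3 of its genes. Gclc and Gclm encode the catalytic and modifier subunits of glutamate-cysteine ligase, the rate-limiting enzyme, and Gss encodes glutathione synthetase. Gclc, on chromosome 9 from 77754535 to 77794489, had no peak center within 50 kb in any list. Gss, on chromosome 2 from 155563181 to 155592810, had 1 within that distance, a GCN2 KO -Leu peak with a score of 37 in an intron of Myh7b, 20.8 kb from Gss.

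Gclm, on chromosome 3 from 122245487 to 122267215, had a stronger neighbor. A peak from 122297033 to 122297333 in WT -Leu scored 298 and ranked 183 of 6374. The WT +Leu list had it from 122297036 to 122297336 with a score of 54, at rank 299 of 4850. The centers were 3 bp apart, and neither GCN2 KO list held a peak at this site. The nearest listed in GCN2 KO -Leu, with a score of 25, was centered at 122303786. The lists name the site for the microRNA gene Mir760, with the WT -Leu center at -3480 bp from its start. The nearest protein-coding genes in the reference were Dnttip2 at 11.9 kb and Gclm at 29968 bp, measured to the gene body, so it does not count among the 9 peaks. It holds TGATGCAA on the plus strand from 122297178 to 122297185, 1.5 bp from the WT -Leu center.
Site upstream of Mir760, chr3:122297133-122297233: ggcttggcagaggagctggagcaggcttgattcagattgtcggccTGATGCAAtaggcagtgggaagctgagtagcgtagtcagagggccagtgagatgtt

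Gsr, glutathione reductase, lies on chromosome 8 from 33653238 to 33698162 on the plus strand. It had 1 peak, in WT -Leu, from 33653751 to 33654051, centered 663 bp downstream of the TSS in intron 1 of 12 and listed as CpG island. Its score was 30, the median of the list, a value shared by 883 peaks. The nearest peak of another list was 142 kb away, in WT +Leu. No word within 50 bp of the center came closer to TGATGCAA than 2 mismatches.

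The transsulfuration genes carried the highest scores after Chac1. Cth, cystathionine gamma-lyase, which releases cysteine from cystathionine, lies on chromosome 3 from 157894248 to 157925081 on the minus strand and had 2 peaks in WT -Leu. The first, from 157923497 to 157923797, was centered 1416 bp downstream of the TSS in intron 1 of 11, scored 48 and ranked 1287 of 6374, at the 79.6th percentile. It held TGATGAAA, a C6A change from the core, on the plus strand from 157923624 to 157923631, 19.5 bp from the center, and a second TGATGNAA word at -111.5 bp from the center, nearer to the start of the window. The other, from 157883438 to 157883738, lay 10.7 kb beyond the 3′ end of the gene in an L1 repeat, scored 23 and ranked 4264, without a TGATGNAA word. The nearest peak of the other lists to the intronic one was 415 kb away, in GCN2 KO +Leu.

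Cbs, cystathionine beta-synthase, which condenses homocysteine with serine, lies on chromosome 17 from 31612623 to 31637233 on the minus strand. Its peak was in WT +Leu, from 31636806 to 31637106, centered 249 bp downstream of the TSS in intron 1 of 16 and listed as CpG island. It scored 37 and ranked 861 of 4850, at the 77.4th percentile, a score shared by 470 peaks. No TGATGNAA word was present in the window, and within 50 bp of the center no word was closer to the core than 3 mismatches. The nearest peaks of other lists were 67.0 kb away in WT -Leu, and 38.8 and 156 kb in GCN2 KO with and without leucine.

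TGATGNAA lay within 50 bp of the center in 5 of the 9 member peaks, but these are 2 sites, Chac1 in every list and the intron of Cth. Over all peaks on assembled chromosomes the WT share was 4.26% with leucine (95% Wilson interval 3.72 to 4.86) and 11.0% without it (10.2 to 11.8). The GCN2 KO share was 2.23% with leucine (1.79 to 2.77) and 2.26% without it (1.76 to 2.89). The intervals cover counting error only. With 1 mismatch to TGATGCAA allowed, the Ggt7 peak was added, against shares of 10.4%, 18.9%, 7.95% and 7.19% of all peaks. The Chac1, Cbs and Gsr windows were rich in GC (62.5% to 67.8%) and in CpG (7.33% to 10.3%), where the medians of the lists were 51.8% to 53.2% GC and 1.33% CpG. The intronic Cth window had 41.9% GC and 0.667% CpG.

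The wider pathway was described with 74 further genes, set down as 5 lists by function, of which 17 had a peak within 5 kb of a TSS in at least 1 list. In WT cells 7 of the 74 did with leucine (9.46%) and 10 without it (13.5%), and in GCN2 KO cells 4 (5.41%) and 3 (4.05%). The shares of protein-coding genes given above were 3.03%, 4.40%, 2.26% and 1.61%. The gene lists were chosen with earlier results of these data known, so a higher share cannot be read as enrichment. Of these 17 genes 8 were listed in WT -Leu alone, beside 35.4% of the 2128 protein-coding genes with a peak within 5 kb in any list. Scores of 100 or more were reached by 5 of the 11 WT -Leu peaks of these genes and by none of the 7 WT +Leu peaks or the 4 and 3 peaks of GCN2 KO with and without leucine. Of all WT peaks within 5 kb of a TSS, 15.5% reached that score without leucine and 5.43% with it, and of the GCN2 KO peaks 1.17% and 3.89%, so that with 7, 4 and 3 peaks a count of 0 says little about these genes.

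**Figure D4:**
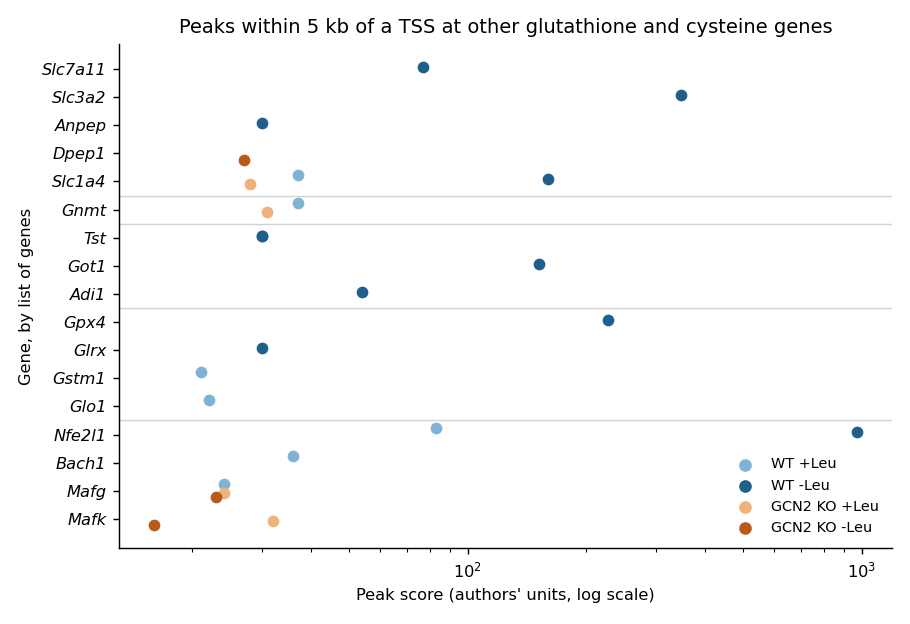
Peak score (log scale, in the authors' units) of every peak within 5 kb of a TSS at the 17 further pathway genes that had one, with 1 row per gene and 1 color per list; grey lines separate the 5 functional lists, from cystine import and the gamma-glutamyl cycle at the top to redox transcription factors at the bottom, and both Tst peaks share the score of 30. All 5 points at or above 100 are WT -Leu peaks.

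Of 13 genes of cystine import and the gamma-glutamyl cycle, 4 had a peak within 5 kb of a TSS in WT -Leu and 1 in each other list. Slc7a11 and Slc3a2, the subunits of the cystine-glutamate antiporter, were listed within that limit in WT -Leu alone. They are named here after their values were seen. The Slc7a11 promoter peak scored 77 at 16 bp upstream of the TSS and held TGATGCAA within 50 bp of its center. The Slc3a2 peak, in an intron 871 bp downstream of the TSS, scored 347. Within 50 bp of its center the word nearest to the core was TGACGCAA, found that near in 0.613% of WT -Leu peaks on assembled chromosomes. Chac1 also holds TGACGCAA, but in WT -Leu it lay 60.5 bp from the Chac1 center, outside that limit. Slc1a4, a transporter of neutral amino acids, scored 37 in WT +Leu and 160 in WT -Leu at the promoter, with centers 1 bp apart and TGATGCAA within 50 bp. Its GCN2 KO +Leu peak, with a score of 28, was centered 195 bp from the TSS and had no TGATGNAA.

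Of 12 genes in the list of cysteine breakdown and sulfide metabolism, 5 were listed at any distance in WT -Leu, 2 in WT +Leu and 1 in GCN2 KO +Leu. The shares of protein-coding genes were 18.3%, 14.6% and 11.1%. Within 5 kb of a TSS, 3 were listed in WT -Leu and none in another list. They were Got1, Adi1 and Tst, named here after their values were seen, with scores of 152 at the promoter, 54 in an intron and 30 at both Tst peaks. Got1 is the cytosolic aspartate aminotransferase and Tst is thiosulfate sulfurtransferase. Adi1 was counted here because the list as set down held it, though it is an enzyme of methionine salvage. Of the 11 methionine cycle genes, Gnmt, glycine N-methyltransferase, was listed within 5 kb in WT +Leu with a score of 37 and in GCN2 KO +Leu with 31. The peaks lay at 2983 and -4753 bp from the TSS and so at different sites. The word nearest to the core in its WT +Leu peak was also TGACGCAA, which lay within 50 bp of the center in 0.145% of WT +Leu peaks.

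Genes that use glutathione or thioredoxin numbered 31. At any distance 6 were listed in WT +Leu, 5 in WT -Leu, and 2 and 1 in GCN2 KO with and without leucine. The shares of protein-coding genes in the same order were 14.6%, 18.3%, 11.1% and 8.56%. Within 5 kb of a TSS, 2 were listed in WT +Leu, 2 in WT -Leu and none in GCN2 KO. Gpx4, the peroxidase that reduces lipid hydroperoxides with glutathione, was also named after its value was seen and had the highest score of them, 227 in WT -Leu, at an exon 207 bp downstream of the TSS and without TGATGNAA. Of 7 redox transcription factors, 3 had a peak within 5 kb of a TSS in WT +Leu, 1 in WT -Leu and 2 in each GCN2 KO list. The gene listed in WT -Leu was Nfe2l1, which scored 83 in WT +Leu and 974 in WT -Leu. Its peaks lay in an intron 1166 and 1229 bp from the TSS, with TGATGCAA within 50 bp of both centers. That WT -Leu peak ranked 29 of 6374. The small Maf genes had low scores at scattered sites, 24 in WT +Leu and 24 and 23 in GCN2 KO with and without leucine for Mafg, and 32 and 16 in GCN2 KO for Mafk.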

How the data were processed

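ATF4 ChIP-seq had been made from 4 libraries, 1 per condition. Per the labels and the study's methods, the authors trimmed the reads, aligned them to mm10 with BWA 0.7.12, called peaks with MACS2 2.1.0 (false discovery rate 0.05, input DNA from the same genotype as background), kept the summit ±150 bp and annotated it with HOMER 4.7. Peak names show that the -Leu libraries, too, were set against input from +Leu cells. The deposited values were a peak score, on a scale that is not given in the sources used here, the distance to the TSS in bp, and the fraction of each window made up of GC and of CpG. Input libraries were not analysed here.

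Ranks, percentiles, score ratios, common sites (centers 300 bp or less apart, the study's limit) and motif words on both strands were computed in Python 3.11.15 with pandas 2.3.3, numpy 2.4.6, pysam 0.24.0 and samtools 1.23.1. Plots used matplotlib 3.10.9. Sequence came from GRCm38 after the listed GC content of all 17408 peaks on assembled chromosomes was found equal to the reference. The search for common sites and for words, tested on simulated data, found 200 of 200 planted common peaks and 400 of 400 planted words. The lists give no depth, which limits the precision of every score. The genes and gene lists were chosen with earlier results of these data known. Genes outside the 9 were named where they had a peak within 5 kb in 2 or more lists, or were among the 3 closest to Chac1 in score pattern, unless said otherwise. Alternatives changed the distance limits, score limits, scaling and motif window.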

Additional observations from a re-analysis of the deposited data

Results flagged for a closer look

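The deposited score of the Chac1 promoter peak differed in direction between the genotypes when leucine was removed. It was 1.68 times as high without leucine in WT cells and 0.471 times as high in GCN2 KO cells. The pattern was picked out because the single library of each condition moved the opposite way in the other genotype, and the difference was not tested. Divided by the median of the common sites, the ratio was 0.587 in WT and 0.458 in GCN2 KO, both below 1. In WT that median was 56 with leucine and 160 without it. The divided ratio therefore sets Chac1 against the common sites and gives no direction of its own. The deposited scores had the same pattern at 20 of the 31 sites found in all 4 lists, and the divided scores had it at 5, without Chac1.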

How the results depend on the processing

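Of 39 alternative values, 24 left a count within 1.5 fold or a ratio as it was, 13 moved a count further or changed a ratio by any amount, and 2 turned the direction of a ratio. The Chac1 ratio in WT, 1.68, turned to 0.587 when scores were divided by the median of the common sites and to 0.9998 by percentile rank, where 1st and 2nd place leave no room to rise. The median of the common sites was itself higher without leucine in WT, so neither alternative gives a direction for Chac1 alone. In GCN2 KO the same alternatives gave 0.458 and 0.9978 in place of 0.471. Sites of all 4 lists that were higher in WT and lower in GCN2 KO without leucine went from 20 to 5 with division by the median. Members in GCN2 KO +Leu went from 2 to 1 within 5 kb and to 1 with a score of 30 or more, since the Ggt7 peak was lost. In GCN2 KO -Leu they went from 1 to 3 when any peak within 50 kb of the gene body was counted. Pathway genes within 1 kb numbered 2 in WT +Leu and 7 in WT -Leu, and 2 and 1 in GCN2 KO with and without leucine. At any distance they numbered 16 and 20 in WT, and 8 and 9 in GCN2 KO. That division of the site count and the motif with 1 mismatch were chosen after seeing the data. No paired analysis was possible because each condition had 1 library. Without depth, no score has an error.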
